A study of Mus musculus with 9 samples.

Results

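The testes of Spo11 knockout mice were compared with those of wild-type mice at 12 days of age on 5 arrays, which are the arrays labelled 12 days among the 9 of the series. Each array was a spotted cDNA microarray on which total RNA of 1 knockout testis sample and 1 wild-type testis sample, labelled with different dyes, competed for the same spots. The knockout samples were Spo11-/- and the control samples wild type; both were whole testis of juvenile mice of 12 days, and no other allele or agent is given in the labels. Knockout RNA carried Cy5 on replicates 1, 4 and 5 and Cy3 on replicates 2 and 3. The other 4 arrays held testes of 15 days, all with knockout RNA in Cy3. Replicate numbers follow the accession order and pair no samples. The submitters' design text speaks of mouse pairs from a litter in quadruplicate, whereas 5 arrays carry the 12-day label. No source used here says whether some of them shared RNA, and p-values measure the spread between these arrays only.

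Spo11 encodes the enzyme that cuts both DNA strands of chromosomes at the start of meiotic recombination. The broken ends are resected, coated by strand-exchange proteins and used to find the homologous chromosome, and the synaptonemal complex then joins the homologues along their length. In the juvenile testis, germ cells enter meiosis as a wave, so that the most advanced spermatocytes of the second postnatal week are in early prophase and those of the third week have reached pachytene. Without Spo11, spermatocytes form few or no such breaks, synapse poorly and die in prophase. Whole testis also holds spermatogonia and Sertoli, Leydig, peritubular, blood vessel and immune cells. In bulk RNA of this kind, fewer cells of a type and less RNA per cell cannot be told apart, and a ratio on a spot gives no level, so the tissue could not be checked against its defining markers.

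Each spot had 1 deposited log ratio, taken here to be log2, and no source used here gives the direction of the ratio. Under the reading Cy5 over Cy3, a value is knockout over wild type on replicates 1, 4 and 5, and its sign has to be turned on replicates 2 and 3. A model with 1 coefficient for the knockout and 1 shared by both dye orientations was fitted with limma to 10075 features that had at least 4 values and both orientations, of which 6237 were genes. Values called knockout over wild type below, and the knockout coefficient, follow this reading. Had the files been deposited as knockout over wild type, the shared coefficient would be the knockout effect, and it is given as such near the end. Had the ratios been Cy3 over Cy5, each knockout coefficient would keep its size and p and change its sign. The labels do not settle the direction. Across features, replicates 2 and 3, with knockout RNA in Cy3, correlated at -0.26 to -0.11 and at -0.37 to -0.33 with the 15-day arrays of the same orientation. Replicates 1, 4 and 5, of the opposite orientation, correlated with them at -0.075 to -0.012, -0.022 to 0.041 and -0.22 to -0.015.

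The arrays were of unequal quality. Between 72.1% and 72.9% of the 16128 probes had a value on replicates 1 and 2, and between 86.8% and 90.1% on replicates 3, 4 and 5. The SD of the log2 ratios was 0.21 to 0.22 on replicates 3 and 4, 0.34 on replicate 2 and 0.43 on replicates 1 and 5. On replicate 5, neighbouring spots correlated at 0.65, against 0.11 to 0.20 on the other 4 arrays. Across features, deposited ratios of arrays with opposite orientation correlated at -0.0028 to 0.29 (6 pairs), so that after turning the sign these pairs lay at -0.29 to 0.0028; the 4 pairs of the same orientation lay at -0.12 to 0.45. The array carried no probe annotated to Spo11, so the labels could not be set against the deleted gene.

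At 12 days no feature differed between knockout and wild-type testis past the threshold, an adjusted p under 0.05 in limma (0 of 10075, 0%). The smallest adjusted p was 0.59. At an unadjusted p under 0.05 there were 269 features (2.67%), 107 above 0 (1.06%) and 162 below 0 (1.61%). Without replicate 3 there were 165 above 0 and 89 below, so the balance of directions turned; with array weights there were 315 and 319. Among genes there were 120 of 6237 (1.92%), 40 above 0 (0.641%) and 80 below 0 (1.28%). A SAM-type test at a 1% false discovery rate with a 1.5-fold threshold, the rule that the design text names, called 12 of the 8663 features with 5 values, 6 in each direction. Mnd1 and Prnp were the genes among these 12, and the others were probes without exactly 1 gene in the annotation used here. This test left out the dye coefficient, so its count is not directly comparable with that of limma. Limma without the dye coefficient also called 0 features, with a smallest adjusted p of 0.28. The false discovery rate of the SAM-type test came from 32 sign flips of 5 arrays, too few to resolve 1% for a single feature. In an exact two-sided sign-flip permutation test, Mnd1 had a p of 0.0625, the smallest possible with 5 arrays. The median SE of a knockout coefficient was 0.11 on the log2 scale, and the median 95% interval reached 0.25 to either side of the estimate, which is 1.19-fold. By chance, 503.75 features would be expected at an unadjusted p under 0.05. The knockout coefficient had fewer, at 269, and the shared coefficient had more, at 675, as the plot of p-values shows.

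**Figure D1:**
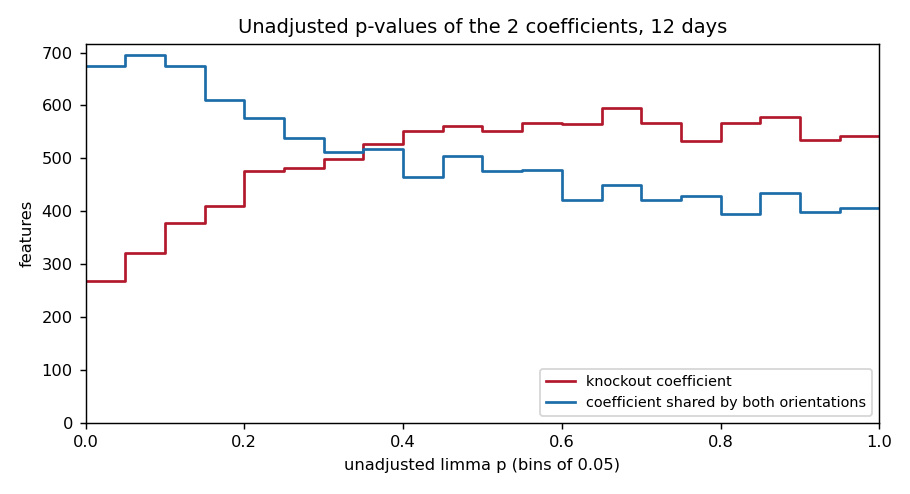
The number of features in each 0.05-wide bin of the unadjusted limma p is shown for the knockout coefficient and for the coefficient shared by both dye orientations, over 10075 features. The lowest bin holds 269 features for the knockout coefficient and 675 for the shared coefficient.

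Among annotated genes, the one that stood farthest from 0 was Mnd1, whose protein works with that of Psmc3ip (Hop2) in strand exchange. On its single probe, knockout over wild type was 1.39, 0.64, 1.79, 1.96 and 1.87 on replicates 1 to 5 on the log2 scale. All 5 arrays lay above 0, with replicate 2 the lowest, and the arrays with knockout RNA in Cy5 and in Cy3 overlapped. One sign on all 5 arrays was seen for 259 of 5616 genes with 5 values (4.61%), of which 107 lay above 0 (1.91%) and 152 below 0 (2.71%). The mean for Mnd1 was 1.53 ± 0.54 (SD, n = 5), and the knockout coefficient was 1.48 ± 0.18 (SE), or 2.78-fold, with a 95% interval of 1.04 to 1.91. Its limma adjusted p over all features was 0.59, so the coefficient did not pass the threshold. Mnd1 was the gene of smallest p in earlier results of these data and was chosen for that.

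The 5 arrays fell into a low range (replicates 1 and 2) and a high range (replicates 3, 4 and 5) of the numbers in their titles. Within the high range, Mnd1 had a coefficient of 1.85 and a limma adjusted p of 0.036. Replicate 3 was the only array of that range with knockout RNA in Cy3, so this p rests largely on the variance shared across features. With array weights over all 5 arrays, the limma adjusted p of Mnd1 was 0.064, and in a fit of all 9 arrays it was 0.129. Within the low range, the value of Mnd1 was 1.01, with no test. Leaving out each array in turn gave 1.19 to 1.76. On the 15-day arrays, the deposited values of Mnd1 were 1.86 to 3.37; there knockout RNA was in Cy3, so that under the reading used for the 12-day arrays they are wild type over knockout. The 12-day arrays with knockout RNA in Cy3 had deposited values of -0.64 and -1.79, opposite in sign to the 15-day arrays of the same orientation.

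Beside Mnd1, knockout coefficients of genes with 1 sign on all 5 arrays were small. The next highest were Emc7, a subunit of the complex that inserts proteins into the membrane of the endoplasmic reticulum, and Gm3636, a predicted gene. Emc7 measured 0.66, 0.41, 0.23, 0.66 and 0.34 on replicates 1 to 5. Its lowest value was that of replicate 3, and its coefficient was 0.44 ± 0.09 (SE). Gm3636 measured 0.47, 0.29, 0.41, 0.66 and 0.34, with a coefficient of 0.42 ± 0.09 (SE). Both were picked among genes with 1 sign on all 5 arrays, so lying above 0 on every array was given by the choice. Neither reached the lowest value of Mnd1 on more than 2 arrays. By root mean square distance over the 5 arrays, the genes nearest to Mnd1 were Taf7l (1.10), Gm3636 (1.18), Emc7 (1.19), Chpf (1.22) and Fmr1 (1.22). Taf7l, an X-linked germ cell relative of a TFIID subunit, measured 0.31, -0.23, 0.93, 0.34 and 1.03, with replicate 2 below 0.

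The other genes with the highest coefficients and values above 0 on all 5 arrays were of several kinds. Kctd12, an auxiliary subunit of GABA-B receptors, measured 0.21, 0.55, 0.30, 0.30 and 0.08, with a coefficient of 0.31 ± 0.09 (SE). Prkcd, a protein kinase C, also had a coefficient of 0.31 and ranged from 0.06 to 0.57. Casp8ap2, which takes part in the processing of histone transcripts and in death receptor signalling, measured 0.19, 0.87, 0.14, 0.035 and 0.24; replicate 2 stood apart, and the coefficient was 0.33 ± 0.12 (SE). Derl2, of the degradation pathway of the endoplasmic reticulum, had a coefficient of 0.31 and was likewise highest on replicate 2, at 0.82. Hacd3, an enzyme of fatty acid elongation, had a coefficient of 0.28, as did Ube2a, an X-linked ubiquitin-conjugating enzyme, and Taf12, a subunit of the general transcription factor TFIID, had 0.27. For none of these 7 genes did the limma adjusted p fall below 0.59.

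On the other side, Prnp, which encodes the prion protein, had the lowest coefficient among genes with 1 sign on all arrays. It measured -0.97, -0.42, -0.58, -0.83 and -0.34 on replicates 1 to 5. The array with the lowest value was replicate 1, and the coefficient was -0.61 ± 0.11 (SE), with a 95% interval of -0.88 to -0.33. Gprasp2, an X-linked gene whose protein sorts receptors after uptake, measured -0.81, -0.61, -0.58, -0.56 and -0.14, and its coefficient was -0.55 ± 0.11 (SE). Its weakest value was on replicate 5. Snord123, a small nucleolar RNA, measured -0.49, -0.47, -0.48, -0.39 and -0.16, with a coefficient of -0.41 ± 0.09 (SE), so that all arrays but replicate 5 lay close together.

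Srp19, a protein of the signal recognition particle, measured -0.47, -0.05, -0.51, -0.71 and -1.04, and its coefficient was -0.51 ± 0.12 (SE). Replicate 2 was close to 0 here, as it was for Spryd7 (-0.01), whose coefficient was -0.51 ± 0.15 (SE). Phtf1, a membrane protein known from spermatogenic cells, measured -0.85, -0.27, -0.40, -0.54 and -0.26, with a coefficient of -0.44 ± 0.11 (SE). Pde4dip, a centrosome and Golgi protein also called myomegalin, had -0.46. Both Cops7b (-0.46) and Cops9 (-0.40) encode subunits of the COP9 signalosome, which removes the ubiquitin-like protein Nedd8 from ubiquitin ligases. Other subunit genes lay on both sides of 0. Cops2 (0.066), Cops4 (0.13) and Cops6 (0.13) were above 0, and Cops3 (-0.10), Cops7a (-0.039) and Cops8 (-0.12) below. Cops7b was lowest on replicate 5, at -1.02, and Cops9 on replicate 1, at -0.98. Wdr86 had a coefficient of -0.45 and completed the 10 lowest.

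**Figure D2:**
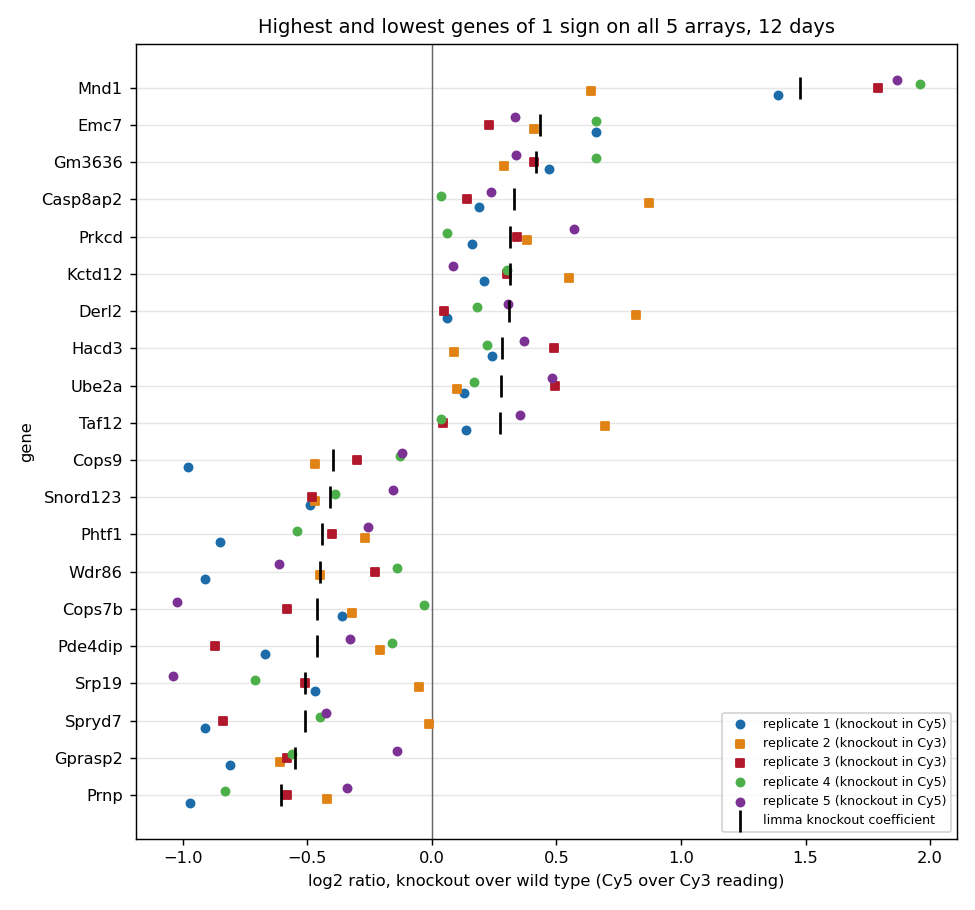
Knockout over wild type (log2) is plotted on each of the 5 arrays at 12 days for the 10 genes with the highest and the 10 with the lowest knockout coefficient among genes with 1 sign on all arrays. Mnd1 lies between 0.64 and 1.96, apart from the other genes above 0, of which the highest value is 0.87.

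A coefficient of at least 1.5-fold was reached by 7 of 6237 genes (0.112%) and by 42 of all features (0.417%). Mnd1 (1.48) and Prnp (-0.61) were the only 2 of these 7 genes with 1 sign on all 5 arrays. For Sspo (1.04), Khsrp (-0.91), Dusp7 (-0.63) and Cdhr4 (-0.78), the fold rested on replicate 2, whose values were 3.11, -3.48, -2.29 and -2.10. On the other arrays Khsrp, a splicing and mRNA decay factor, measured between -0.52 and 0.59, and Sspo, the gene of SCO-spondin, between -0.07 and 0.72. For the histone gene H4c18 (-0.59), replicates 1 and 3 held the low values, -1.49 and -1.12. Only Mnd1 and Sspo reached 2-fold.

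No tested gene of the meiotic recombination lists other than Mnd1 had an unadjusted p under 0.05. The share over all genes was 1.92%, at which lists of this size would hold few or none. Of the genes that form or position breaks, only Mei1, which is needed for break formation, was measured. Knockout over wild type for Mei1 was 0.39, 0.53, -0.06 and -0.04 on replicates 1 to 4, with no value on replicate 5. Replicates 1 and 2 were high and replicates 3 and 4 near 0, and the coefficient was 0.20, with a 95% interval of -0.15 to 0.56.

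Of the 16 listed genes of strand exchange on the array, 13 were tested, and Mnd1 was the only one with an unadjusted p under 0.05, beside 1.92% of all genes. The median coefficient of the 13 was 0.0010, beside -0.011 for all genes, and 7 lay above 0, beside 2870 of 6237 genes. Psmc3ip, the partner of Mnd1, measured -0.35, 0.20, -0.92, 0.25 and 0.16, values of both signs, and its coefficient was -0.17, with an interval of -0.60 to 0.26. Brca2, a gene of repair by homologous recombination, had a coefficient of 0.04 and an interval of -0.21 to 0.30. Swi5, of a complex that takes part in strand exchange, measured -0.28, -0.12, -0.43, 0.05 and -0.48, with a coefficient of -0.26 and an interval of -0.52 to 0.01. Apart from replicate 4, Swi5 was below 0 on every array. The other 3 listed genes on the array had too few values for the fit.

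All 15 genes of synapsis and the chromosome axis on the array were tested. None had an unadjusted p under 0.05, beside 1.92% of all genes. The median coefficient was 0.08, and 10 lay above 0, beside 2870 of 6237 genes. Sycp3, a main component of the axis, measured -0.60, 0.02, -0.05, 0.49 and 0.77, so replicates 1 and 5 lay on opposite sides of 0. Its coefficient was 0.10, with an interval of -0.38 to 0.58. Sycp1, the transverse filament of the synaptonemal complex, showed the same split, from -0.45 on replicate 1 to 0.52 on replicate 5, as did the meiotic cohesin Rec8, from -0.62 to 0.35. The list medians of these arrays were -0.23 and 0.20. The central element genes Syce1 (-0.21) and Tex12 (-0.28) had the lowest coefficients of the list and the cohesin Stag3 (0.16) the highest, each with an interval that held 0.

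The 10 tested genes of crossover formation included none with an unadjusted p under 0.05, beside 1.92% of all genes. Their coefficients ran from -0.20 for Top3a, a topoisomerase that takes apart joined DNA molecules, to 0.15 for Tex15, a gene needed for chromosome synapsis and double-strand break repair. The MutS homologue Msh4, which marks crossover sites, measured 0.08, -0.12, 0.26, 0.02 and 0.23, and its coefficient was 0.09, with an interval of -0.14 to 0.31. The median of the list was -0.0058.

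Among the 12 tested genes of DNA damage signalling, likewise, none had an unadjusted p under 0.05, beside 1.92% of all genes. The median was -0.012, beside -0.011 for all genes. Atm, the kinase that senses double-strand breaks, measured -0.24, 0.065, 0.42, 0.01 and -0.21, with a coefficient of 0.05 and an interval of -0.18 to 0.28. Chek2, a kinase downstream of Atm, measured -0.17, -0.41, 0, -0.06 and -0.45; no array was above 0, and the coefficient was -0.22, with an interval of -0.47 to 0.04. Trp53bp1, a protein that gathers at breaks, was above 0 on all 5 arrays, from 0.03 to 0.25, and had a coefficient of 0.12 and an interval of -0.06 to 0.31. Chek1 had opposite signs in the 2 dye orientations. It was below 0 on the arrays with knockout RNA in Cy5 (-0.50, -0.30 and -0.67) and above 0 on those with Cy3 (0.605 and 0.315), which left a knockout coefficient of -0.01 and a shared coefficient of -0.47; as deposited, it was below 0 on all 5 arrays.

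**Figure D3:**
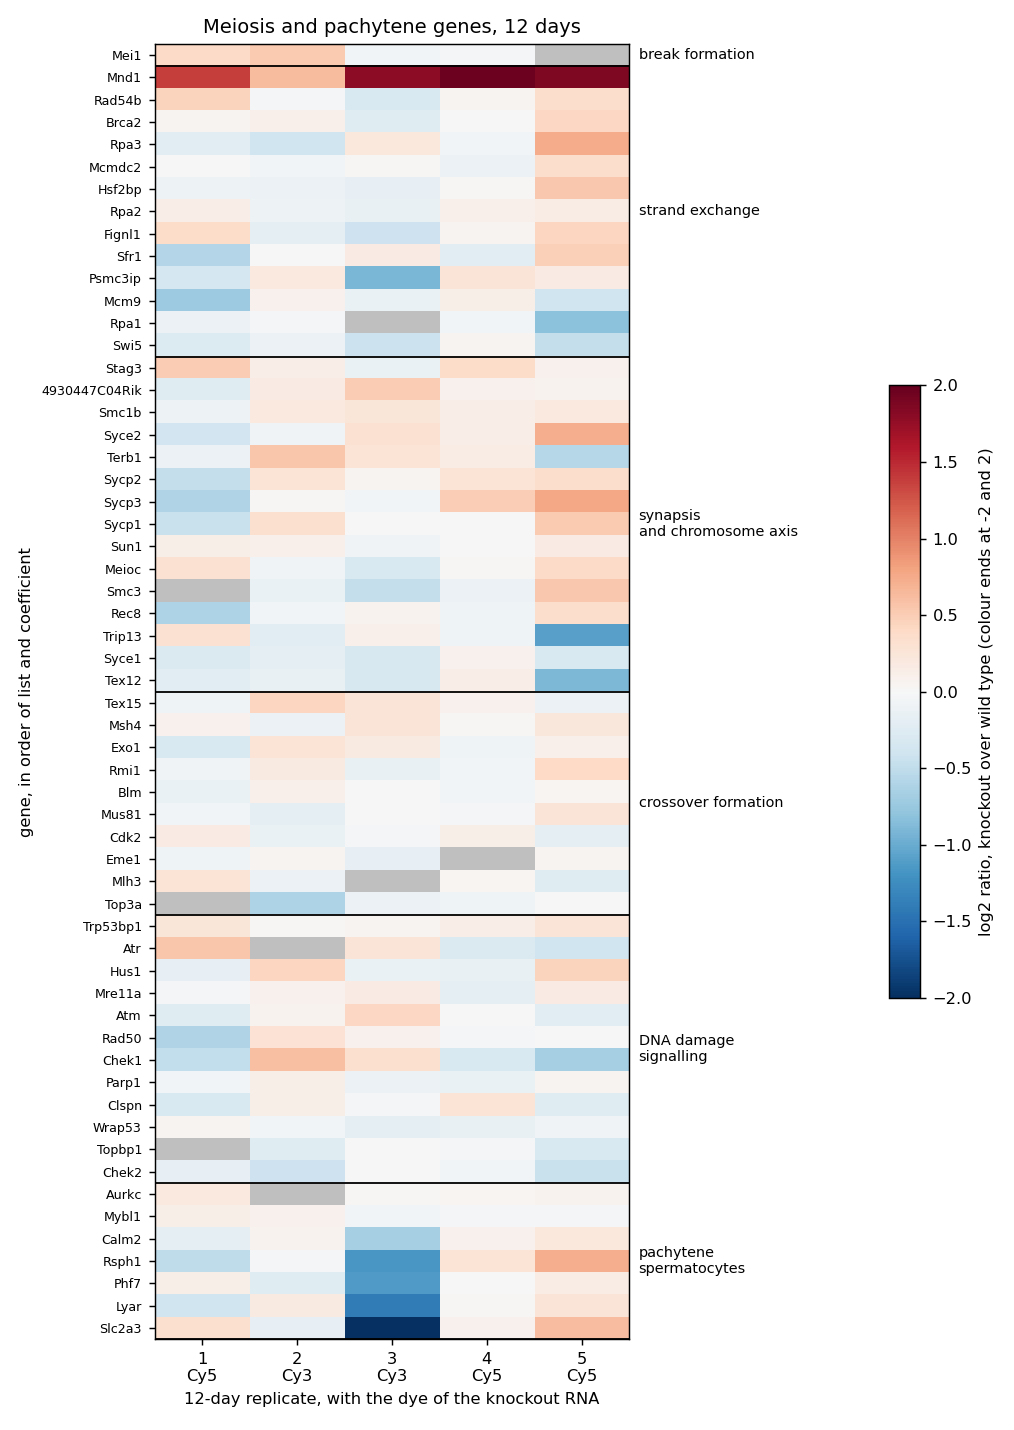
Colours give knockout over wild type (log2, with the scale ending at -2 and 2) for the tested genes of 5 meiosis lists and of the pachytene list on each 12-day array; grey marks a missing value. The row of Mnd1 is red throughout (0.64 to 1.96), and the low pachytene values are those of replicate 3.

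The listed genes of pachytene spermatocytes, chosen with earlier results of these data known, set 1 array apart from the other 4. Of 9 listed genes on the array, 7 were tested, and their median coefficient was -0.22. None had an unadjusted p under 0.05, beside 1.92% of all genes. The list medians of replicates 1 to 5 were 0.11, 0.01, -1.13, 0.04 and 0.21, so the value of replicate 3 alone lay far from 0. On that array the glucose transporter Slc2a3 was at -2.36, the nucleolar protein Lyar at -1.40, the radial spoke gene Rsph1 at -1.16 and Phf7, a chromatin reader of male germ cells, at -1.13. On the other 4 arrays Slc2a3 ran from -0.17 to 0.61 and Phf7 from -0.25 to 0.14. Without replicate 3 the median coefficient of the list was 0.06, and without replicate 2 it was -0.50. Mybl1, a transcription factor that acts at pachytene, stayed between -0.05 and 0.11 on all 5 arrays, and Aurkc was at 0.03 on replicate 3. Slc2a3, Lyar, Rsph1 and Phf7 also had mean deposited values far from 0 on the 15-day arrays (-2.16, -1.56, -1.73 and -1.635), whereas Aurkc had 0.15. The list median is therefore not independent of the earlier results. All 7 genes were measured in RNA of whole testis, so the number of spermatocytes in each sample is unknown, and whether it moved with these values was not tested.

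The list medians of other germ cell genes lay close to 0. Of 11 genes of spermatogonia, the mitotic germ cells, none had an unadjusted p under 0.05, beside 1.92% of all genes. Of these 11, 4 lay above 0, beside 2870 of 6237 genes, and the median was -0.03. Kit, the receptor of differentiating spermatogonia, measured 0.75 on replicate 1 and -0.14 to 0.13 on the other arrays. Etv5, which stem cells among the spermatogonia need for self-renewal, measured -1.19 on replicate 1 and 0.61 on replicate 2, and its coefficient was -0.04, with an interval of -0.54 to 0.46. The 11 tested genes for piRNAs, small RNAs that hold transposons in check, had a median of -0.06. None of them had an unadjusted p under 0.05, beside 1.92% of all genes. Tdrkh was above 0 on all 5 arrays (0.0010 to 0.25), with a coefficient of 0.14.

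Of the genes of the motile cilium and flagellum, 20 were tested, 3 lay above 0, beside 2870 of all 6237 genes, and the median was -0.11. Ofd1, an X-linked gene of the base of the cilium, was the only member with an unadjusted p under 0.05, beside 1.92% of all genes. It measured 0.15, 0.29, 0.40, 0.15 and 0.28, all above 0 and close together, with a coefficient of 0.27 ± 0.08 (SE). The list medians of replicates 1 to 5 were -0.07, 0.0050, -0.26, 0.05 and 0.04, and without replicate 3 the median coefficient was 0.01. Txndc2, the only tested gene of spermatids, which are not yet present in testes of this age, was at -1.02 on replicate 1 and 1.02 on replicate 2, and had a knockout coefficient of 0.03 and a shared coefficient of -0.56.

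Markers of the somatic cells were near 0 as well. None of the 12 Sertoli, 11 Leydig, 14 peritubular and fibroblast or 5 macrophage genes had an unadjusted p under 0.05. The share over all genes was 1.92%, at which lists of this size would hold few or none. The list medians were -0.05, -0.07, 0.06 and -0.11. Wt1, a transcription factor of Sertoli cells, was below 0 on all 5 arrays (-0.40, -0.06, -0.02, -0.25 and -0.26), with a coefficient of -0.17 and an interval of -0.36 to 0.02. Among steroidogenic genes, Cyp17a1 and Star had coefficients of -0.16 and -0.12 and Hsd3b1 had 0.13. All 5 macrophage genes had coefficients below 0, from -0.15 for C1qb to -0.03 for Fcer1g. Over all genes, 2870 of 6237 lay above 0. The macrophage list median was -0.36 on replicate 1 and -0.10 to 0.08 on the others. Hba-x, an embryonic globin gene whose cDNA resembles that of other globin genes, was the 1 of 5 endothelial and blood genes with an unadjusted p under 0.05, beside 1.92% of all genes. It measured -0.03, -0.25, -0.52 and -0.66 on replicates 2 to 5, and its coefficient was -0.36. The globin gene Hbb-y had -0.20, and whether the samples held different amounts of blood was not tested.

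Neither cell death nor stress genes showed a common direction. In the list of apoptosis and p53 response genes, none of 12 had an unadjusted p under 0.05, beside 1.92% of all genes. Their coefficients ran from -0.28 to 0.08. The low end was Casp9, the initiator caspase of the mitochondrial pathway, which measured -0.08, -0.20, -0.15, 0.04 and -1.10, so that replicate 5 alone was low. Mdm2 and Ccng1, both targets of p53, had coefficients of -0.13 and 0.02, and Casp6 had 0.08. Of 14 stress and immediate early genes none had an unadjusted p under 0.05, beside 1.92% of all genes, and the median was -0.02. Myc was above 0 on all 5 arrays, from 0.035 to 0.27, with a coefficient of 0.15.

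Cell cycle genes numbered 43, of which 21 lay above 0, beside 2870 of 6237 genes, and the median was -0.0093. At an unadjusted p under 0.05 there was 1 above 0 and 2 below, beside 0.641% and 1.28% of all genes. Bub1, a kinase of the spindle checkpoint, measured 0.26, 0.205, 0.225, 0.18 and 0.14, all above 0 and close together, and its coefficient was 0.20. Aurkb, the kinase of the chromosomal passenger complex, measured -0.38, -0.35, -0.59, -0.02 and -0.43, with replicate 4 near 0, and its coefficient was -0.37 ± 0.10 (SE). Its partners in that complex, Birc5, Incenp and Cdca8, had coefficients of -0.17, -0.11 and -0.026. The replication gene Pcna had -0.01 and Mki67, a marker of proliferating cells, had 0.06.

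The genes of cytosolic ribosomal proteins lay mostly below 0 on replicates 1, 3 and 4, on both sides of 0 on replicate 2 and mostly above 0 on replicate 5. Knockout over wild type was below 0 for 67 of 70 genes on replicate 1, 44 of 71 on replicate 2, 65 of 71 on replicate 3 and 62 of 71 on replicate 4, and for 4 of 71 on replicate 5. The medians of these arrays were -0.87, -0.05, -0.21, -0.18 and 0.42. Across the 71 genes the median coefficient was -0.16 and 2 were above 0, beside 2870 of 6237 genes. Yet none had an unadjusted p under 0.05, beside 1.92% of all genes, and the median SE was 0.17. Without replicate 5 the median was -0.32, and without replicate 1 it was -0.0054. Replicates 1 and 5 were also the arrays with the largest SD of all ratios, and whether this bears on the ribosomal values was not tested.

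X-linked genes, which are silenced in pachytene spermatocytes, were located through a RefSeq gene table of the mouse assembly GRCm38.p6. Of 192 tested, 116 had a coefficient above 0, beside 2870 of all 6237 genes, and the median was 0.04, beside -0.011. At an unadjusted p under 0.05 there were 9 above 0 and 4 below, beside 0.641% and 1.28% of all genes. Their list medians on replicates 1 to 5 were -0.05, 0.02, 0.14, -0.01 and 0.05, so that replicate 3 was the highest. Without replicate 3 the median coefficient was 0.02. Stag2, a cohesin subunit of mitotic cells, had the largest coefficient of the 9, at 0.31, with values of 0.59 and 0.61 on replicates 2 and 3 and of 0.23, -0.08 and -0.08 on replicates 1, 4 and 5. Gprasp2 (-0.55) was the lowest of the 4 below 0.

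**Figure D4:**
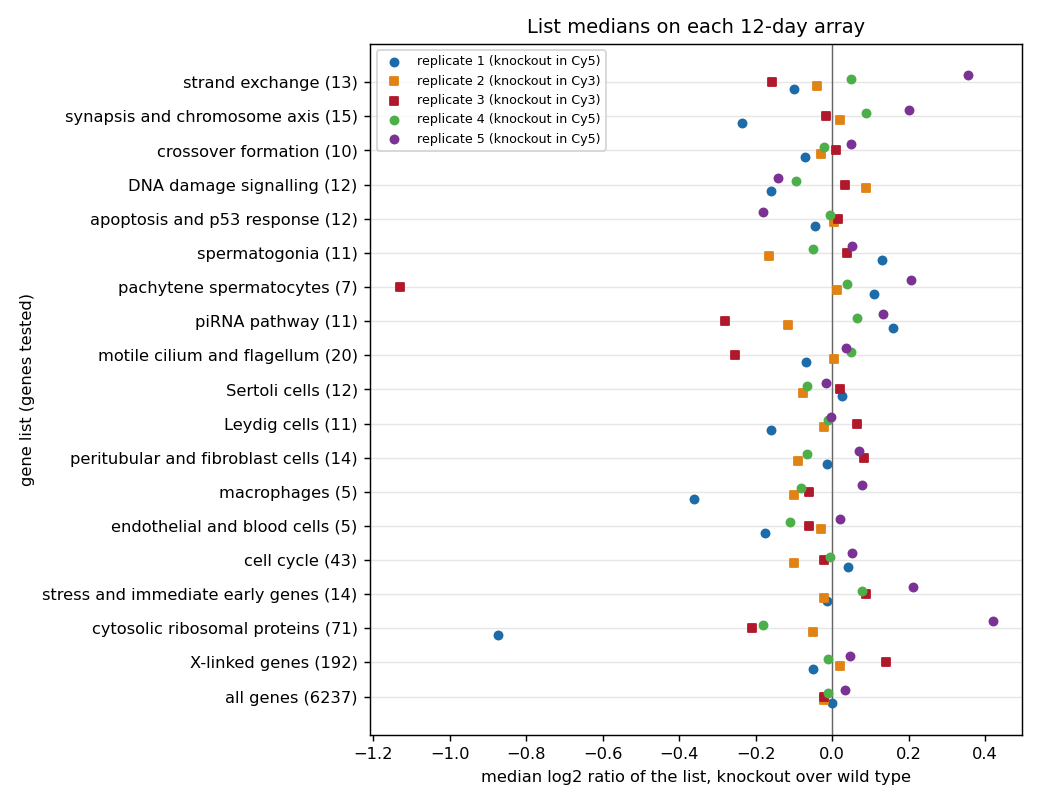
Each point is the median of knockout over wild type (log2) of 1 gene list on 1 of the 5 arrays at 12 days; the number of genes tested is given beside each list, and squares mark arrays with knockout RNA in Cy3. Lists with 1 tested gene (break formation and spermatids) are left out; among those shown, the pachytene median of replicate 3 (-1.13) and the ribosomal medians of replicates 1 (-0.87) and 5 (0.42) lie farthest from 0.

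Read as deposited, that is without turning any array, more features leaned one way on all arrays. The coefficient shared by both orientations had an adjusted p under 0.05 in limma for 0 of 10075 features (0%), and the smallest adjusted p was 0.49. At an unadjusted p under 0.05 there were 675 features (6.7%) and 387 genes (6.2%), 186 genes above 0 (2.98%) and 201 below 0 (3.22%). Deposited values had 1 sign on all 5 arrays for 722 of 5616 genes (12.9%), 417 above 0 (7.43%) and 305 below 0 (5.43%), against 259 (4.61%) for the turned values. At least 1.5-fold was reached by 38 of 6237 genes (0.609%). If the values were deposited as knockout over wild type, this coefficient is the knockout effect, and otherwise it is the dye effect of each spot; the labels do not settle which.

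Under this reading Mnd1 had a coefficient of 0.26 ± 0.18 (SE). The highest coefficients among genes with 1 sign were those of Slc2a3 (0.80), Armt1 (0.50), Mark2 (0.42, with probes that disagreed), Isy1 (0.42), Dad1 (0.40) and 2900026A02Rik (0.40). Dad1, a subunit of the enzyme that attaches sugars to new proteins, had deposited values of 0.55, 0.49, 0.36, 0.34 and 0.26, all of similar size. Slc2a3 had 0.32, 0.17, 2.36, 0.08 and 0.61, and here too replicate 3 set the coefficient. The lowest were Mef2d (-1.08), Zfp708 (-1.04), Prex2 (-0.97), Zfp84 (-0.94), Fbxw17 (-0.92) and Oosp2 (-0.90). Mef2d, a transcription factor, had deposited values of -1.93, -1.33, -0.72, -1.17 and -0.32, and replicate 5 was closest to 0. Fbxw17, an F-box gene, had -1.18, -0.92, -0.34, -1.02 and -1.44. Across features the knockout coefficient and the shared coefficient correlated at -0.04.

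**Figure D5:**
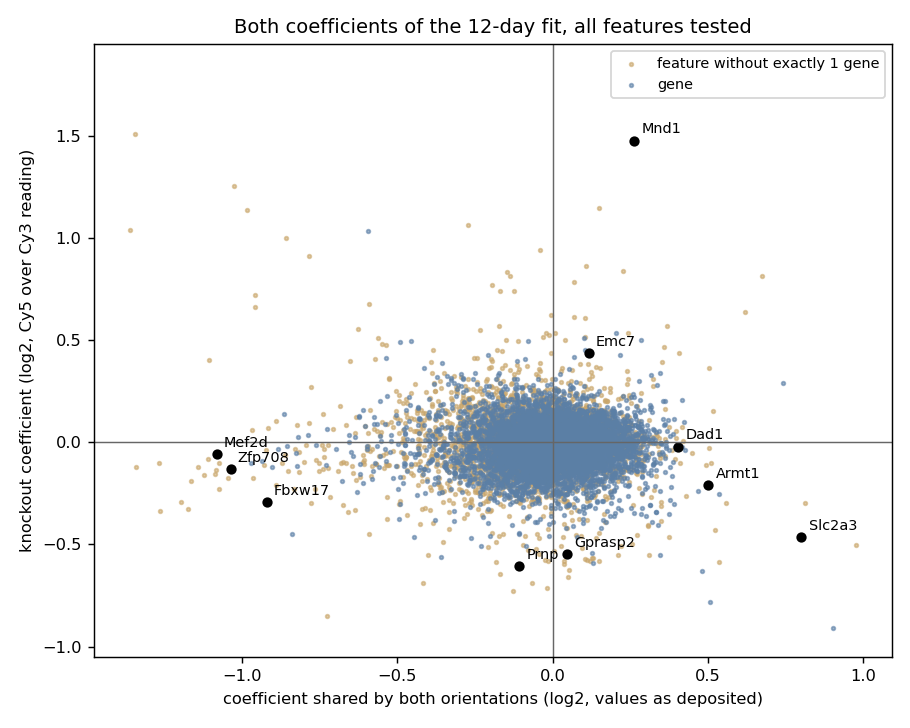
The knockout coefficient (vertical axis, log2) is plotted against the coefficient shared by both dye orientations (horizontal axis, log2) for all features tested at 12 days, with genes and features without exactly 1 gene in different colours and some genes named. Mnd1 lies at 1.48 on the vertical axis and 0.26 on the horizontal axis, the highest of the genes, while Mef2d and Zfp708 lie at the left with knockout coefficients near 0.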

How the data were processed

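Log2 ratios were used as deposited by the authors, 1 column per array. Per the series' design text, slides were read with a GenePix 4000A scanner, GenePix 3.0 gave and flagged the spot values, the median of every array was set to 0, and genes were called with SAM. No source used here gives the log base, background correction or direction. No intensities were used; precision is limited by the number of arrays, and the signal over background is unknown. Centring again moved nothing.

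Of 16128 probes, 9604 had exactly 1 gene in the platform annotation, 213 several and 6311 none; symbols were updated by Entrez ID (98.9% matched). Probes of 1 gene were averaged, and other probes, with several genes or none, were kept as features of their own and called unlisted. R 4.3.3 with limma 3.58.1 fitted each feature (lmFit, then eBayes) and gave two-sided p-values, adjusted by Benjamini-Hochberg over all features. The fit was also run on simulated arrays with independent noise, which does not test how well the p-values hold on the real arrays. Genes were named by rule: Mnd1, the 10 highest and 10 lowest coefficients and the 5 smallest p in each direction among genes with 1 sign on all 5 arrays, 6 in each direction as deposited, the 5 nearest to Mnd1, and the list members of smallest p (up to 6 for germ cell and meiosis lists). Further list members were named for their known roles, and genes of at least 1.5-fold and X-linked genes were named after their values were seen. Members and lists were chosen with earlier results of these data known. Alternatives covered missing values, scaling, quantile normalization, neighbouring spots, single probes, array weights, title ranges, all 9 arrays, a SAM-type test and each array left out.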

Additional observations from a re-analysis of the deposited data

Results flagged for a closer look

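Among 104 groups of 5 values examined, 6 held 1 value far from the other 4, and chance gives about 1 in 20. Casp8ap2 was at 0.87 on replicate 2, with the others between 0.035 and 0.24. Slc2a3 was at -2.36 on replicate 3, with the others between -0.17 and 0.61. Casp9 was at -1.10 on replicate 5, with the others between -0.20 and 0.04. Pdgfrb, a receptor of peritubular and vessel-wall cells, was at -0.92 on replicate 2, with the others between -0.16 and -0.03. The median of the pachytene spermatocyte genes was -1.13 on replicate 3, with the others between 0.01 and 0.21. The correlation between neighbouring spots was 0.65 on replicate 5, with the others between 0.11 and 0.20.

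With both ages read by their dye labels, 7 of the 91 named genes lay on opposite sides of 0 at 12 and at 15 days. Each of these 7 had a value on all 9 arrays and 1 sign on all arrays of an age. Prkcd, with 3 values at 15 days, was split in the same way and was not counted. Many of the 91 were named because their 12-day values had 1 sign, so part of the condition was met by choice. As no such share over all features is given here, the count is no result about these genes. The difference of knockout over wild type, 15 minus 12 days, was estimated in a limma model of all 9 arrays over 9851 features, an alternative chosen after seeing the data. As no 15-day array had knockout RNA in Cy5, the 12-day side of the difference is the mean of replicates 2 and 3; the other 3 arrays enter only the spread. For Mnd1 it was -3.64, with an adjusted p of 0.0067. It was -0.67 for Kctd12 (adjusted p = 0.057), -0.81 for Ube2a (0.087), -0.46 for Taf12 (0.22), 0.67 for Srp19 (0.11), -0.73 for Ofd1 (0.067) and 0.57 for Pdgfrb (0.17), of which none passed the threshold. With the sign of the 15-day arrays turned, the difference for Mnd1 was 1.21, with a limma adjusted p of 0.74, and none of the other 6 passed either. The genes were flagged and tested on the same values, so these p-values are no independent support. The direction of the 15-day values is not settled.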

How the results depend on the processing

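The number of features past the threshold for the knockout coefficient was 0 under each alternative of the limma fit except 1: the high range of title numbers alone gave 2, Mnd1 (1.85, adjusted p = 0.036) and an unlisted probe, so 1 member of a list passed. Unadjusted, there were 269 (465 with arrays scaled, 488 with quantile normalization, 634 with array weights); the SAM-type test gave 12 at 1% with 1.5-fold and 29 at 5%. For the values read as deposited, quantile normalization gave 1, the title range as a block 2, all 9 arrays together 3, and no adjustment 675. In the high range, replicate 3 was the only array with knockout RNA in Cy3, and the low range alone gives values with no test. Leaving out each array gave 0 to 0 features past the threshold for both coefficients, and unadjusted counts of 194 to 607 (607 without replicate 5) for the knockout and 234 to 951 as deposited. Of 1610 values of the 91 named genes under alternatives, 32 turned their sign. No feature had passed the threshold for the knockout coefficient in the main fit. With an array left out, the values ran from -1.01 to 0.083 for Slc2a3, -0.45 to 0.11 for Psmc3ip, -0.0073 to 0.13 for Rad54b, -0.0057 to 0.18 for Msh4, -0.028 to 0.14 for Rmi1, -0.092 to 0.018 for Eme1, -0.041 to 0.24 for Hus1, -0.17 to 0.015 for Ccnd2, -0.047 to 0.14 for Foxo1, -0.72 to 0.073 for Lyar, -0.32 to 0.052 for Calm2, -0.50 to 0.061 for Rsph1, -0.18 to 0.25 for Txndc2, -0.0023 to 0.61 for Akr1c14 and -0.32 to 0.028 for C1qa. With arrays scaled to the same spread, Rad54b was at -0.0036. With array weights, Rad54b was at -0.0076, Rmi1 at -0.0011 and Mre11a at -0.0051. In the high range alone, Rad54b was at -0.049, Txndc2 at -0.058, Akr1c14 at -0.0023, C1qb at 0.020 and C1qa at 0.026. Txndc2 was at -0.017 with neighbouring spots subtracted, -0.033 with the title range as a block and -0.078 without the dye coefficient. The causes were not tested. No paired analysis was possible because the labels carry no replicate numbers, and each array already sets 1 knockout against 1 wild-type sample.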

Other observations

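Probes without exactly 1 gene in the annotation used here, called unlisted, made up 38.1% of the features tested and 9 of the 10 of smallest p for the knockout coefficient. Of the features with a coefficient of at least 2-fold, 7 were unlisted. The highest coefficient of an unlisted feature was 1.51, above the 1.48 of Mnd1. Another of the 7, probe 3059469, measured 0.80, 0.14, 1.86, 1.53 and 1.56 on replicates 1 to 5 and had a coefficient of 1.15. Like Mnd1, it was lowest on replicate 2 and high on replicates 3, 4 and 5, and its deposited values on the 15-day arrays were 1.58 to 2.55. Probe 3045711 measured 0.46, 1.34, 1.13 and 0.78 on replicates 1, 3, 4 and 5 (coefficient 1.07), and probe 3069903 measured 0.61, 0.35, 1.08, 1.22 and 0.73 (coefficient 0.78). Their deposited 15-day values were 1.06 to 2.19 and 1.16 to 2.36. On the other side, probe 3046785 measured -0.66, -0.82, -0.60, -0.64 and -0.53, all close together, and its coefficient was -0.66. The annotation used here gives no single gene for these probes.

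The probes of Mef2d, Zfp708 and Prex2, 3 genes that are not related, had nearly the same deposited values. Mef2d and Zfp708 differed by at most 0.16 on any 12-day array, and Zfp708 and Prex2 by at most 0.14. On the 15-day arrays the largest differences were 0.19 and 0.31. In the order of the probe numbers, the spots lay 2009 and 2470 apart.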
